A study of Vitis vinifera with 4 samples.

Results

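Cytochrome P450 genes with a NAC61 binding event are described here. P450s are haem monooxygenases that insert oxygen into small molecules, and in plants they build and break down hormones, cutin and suberin lipids, phenylpropanoids and terpenoids. Families are numbered, and families of common descent are grouped into clans. Clan 71 holds mostly enzymes of specialised metabolism, clan 86 mostly fatty acid hydroxylases, and clans 72 and 85 hold, among others, enzymes that act on hormones, terpenoids and sterols. NAC61 is a grapevine transcription factor (TF) of the plant NAC family.

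Binding was measured by DNA affinity purification sequencing (DAP-seq), in which a tagged TF made in a cell-free lysate retains fragments of naked genomic DNA. The DNA came from pooled young leaves of Vitis vinifera cv. Syrah. HALO-NAC61 was represented by 2 libraries, and the control, the HALO tag without NAC61 (labelled pIX-HALO, and GST-HALO in the methods), by 2 libraries, so both groups share the leaf DNA and the rabbit reticulocyte lysate in which the proteins were made. The assay does not see chromatin, and it says nothing of whether a gene is expressed. Read alignment by the authors used the PN40024 12X.v2 assembly, which comes from another cultivar, and binding events were called with GEM, which placed both HALO-NAC61 libraries into 1 list against the control. No value is given per library, so no spread between replicates can be stated, and no difference described here was tested across replicates.

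Members were chosen by gene annotation alone. A gene counted where the text naming it in the gene table published with the study contained P450 or opened with CYP in capitals and a digit, and all events assigned to such a gene as the closest were taken. This gave 49 genes with 56 events, among 1477 genes with 1879 events in the copy of that table used here and 8558 events in the deposited list. That copy is ordered by annotation and ends within the letter D, so P450 genes whose annotation comes later in the alphabet are not members. A further gene, spelled CyP82A3 (VIT_18s0001g11560), missed the rule by its lower-case letter. Its event, 5636 bp inside the gene, held 130 reads (−log10 q-value 9.72). The names are those of the best known relative, often from another species, and 20 of the 49 genes share their name with another member, so gene IDs are given.

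Each event has a summit, a q-value against the control and a signal. The signal counts the HALO-NAC61 reads attributed by GEM to that event. The signal is not scaled to depth, and the events of the whole list hold 888073 such reads, of which 5463 (0.615%) lie at P450 genes. A signal of 85 reads has a 95% exact Poisson interval from 67.9 to 105.1 reads, which covers counting error only. The signal was not a whole number at 7 of the 56 P450 events (12.5%, 95% Wilson confidence interval from 6.19% to 23.6%), against 15.7% of the other listed events. Reads that could not be placed with confidence were removed by the authors, and P450 genes often stand in arrays of similar copies. The signal at near-identical copies is therefore uncertain, and the extent of this was not tested.

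The peak caller also learned short enriched sequences (k-mers) and gave the k-mer it found at an event. They are shown first because they are the sequences given event by event in the table used here. At the P450 genes, 28 of the 56 events carried a k-mer (50.0%, 95% Wilson confidence interval from 37.3% to 62.7%), against 723 of the 1823 other listed events (39.7%, from 37.4% to 41.9%). All 28 contained CGT on the strand given (95% Wilson confidence interval from 87.9% to 100%), as did 93.2% of the k-mers at the other listed events, a share within that interval. With a core defined as GCGTG or ACGTG on either strand and set in capitals, GCGTG was present at 17 of the 28 events and ACGTG at 8. Among the other listed events with a k-mer, 59.2% held GCGTG and 15.4% held ACGTG. The P450 share for ACGTG was 28.6% with an interval from 15.3% to 47.1%, which contains 15.4%. The k-mers with GCGTG at the P450 events, each written 5′ to 3′ with the gene it was found at, were as follows.
CYP79A2 (VIT_06s0009g02930): gattGCGTGt
CYP86B1 and CYP72A59 (VIT_19s0135g00120): tgGCGTGt
CYP78A11: taGCGTGt
CYP78A4 and CYP82C4: atgGCGTGt
CYP86A2 (VIT_02s0025g03320): gcttGCGTGt
CYP89H3: ataGCGTG
CYP71E: ggttGCGTG
CYP72A15: gttGCGTG
CYP93A1: gcttGCGTG
CYP72A53v1, proximal event: tGCGTGt
CYP81E1 and CYP89A28: cttGCGTG
CYP715A1: gtttGCGTG
CYP79A2 (VIT_13s0067g02830) and CYP87A3 (VIT_15s0048g01950): attGCGTG
The bases before this core varied, with tt or tg in most of them and ta at CYP78A11 and CYP89H3.

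The k-mers with ACGTG were fewer in kind. They were found at genes of clans 71 and 86, and all of them carried tg before the core.
CYP81B2v1, CYP83B1, CYP86A8 (VIT_15s0046g02380) and CYP94C9 (VIT_13s0074g00790): tgACGTGt
CYP78A8 and CYP94B3: atgACGTG
CYP86A2 (VIT_01s0137g00410): atgACGTGtt
CYP76B1: tgACGTGtt
The other 3 k-mers held neither core. Those of CYP72A1 (VIT_15s0021g01060), gattgcgt, and of the upstream event of CYP72A53v1, ggttgcgt, ended before the last G, and that of CYP87A2 was attgcgta. The gene with both events carrying a k-mer was CYP72A53v1. A k-mer is a description of the letters found in the same events from which it was learned.

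P450 events were of ordinary strength for this list. Their lowest signal was 39 reads and their highest 219 reads, and the median was 85.5 reads (95% interval of the median from 74 to 95 reads), while the whole list ranged up to 2802 reads with a median of 89.2 reads. The median −log10 q-value was 7.38 at P450 events and 7.15 in the whole list. At or above the list's median signal were 26 of the 56 P450 events (46.4%), against 50.0% of all events. A −log10 q-value of at least 5 was reached by 38 P450 events (67.9%, 95% Wilson confidence interval from 54.8% to 78.6%), against 66.9% of the list, and a value of at least 3 by 53 (94.6%, from 85.4% to 98.2%), against 87.2%. The highest 10% of the list by signal, from 146 reads upwards, held 9 P450 events (16.1%, from 8.69% to 27.8%), against 10.2% of all events, ties included. The interval of each of these P450 shares includes the share of the list.

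**Figure D1:**
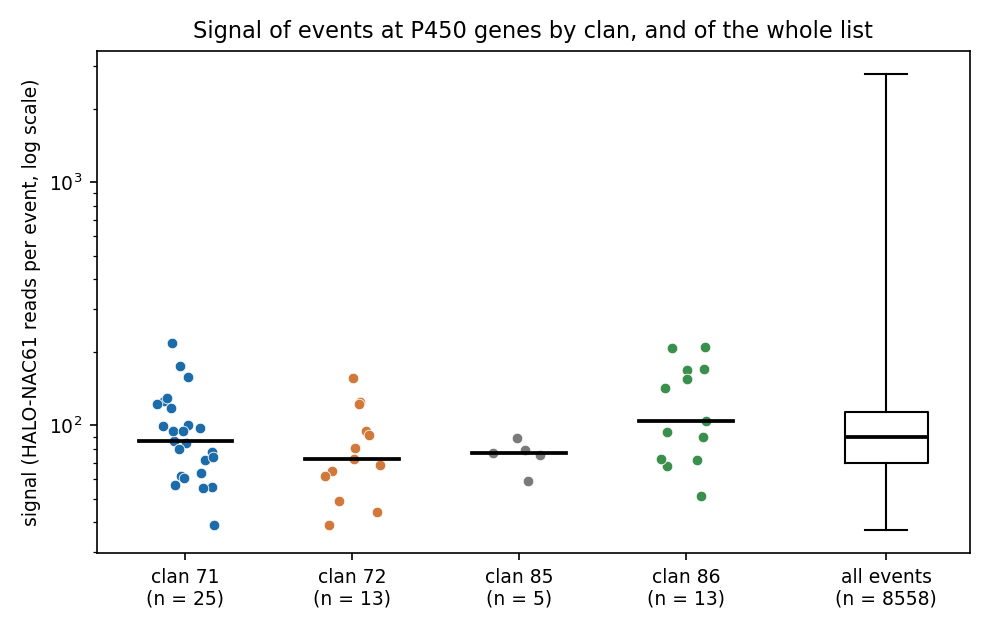
Signal of each event (points) at P450 genes of clans 71, 72, 85 and 86 with the median of the clan (line), and of all 8558 events (box from the first to the third quartile, median line, whiskers to the lowest and highest value), on a log scale. Clan 86 has the highest median, 104 reads, and all P450 events lie between 39 and 219 reads.

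Clan 86, the fatty acid hydroxylases, had the highest median signal of the 4 clans, 104 reads over 13 events at 12 genes (95% interval of the median from 72.3 to 170 reads). The median was 86 reads for the 25 events of clan 71, 73 reads for the 13 events of clan 72 and 77 reads for the 5 events of clan 85, and the intervals of all 4 medians overlap. In clan 86, 5 of 13 events were in the highest 10% by signal (38.5%, 95% Wilson confidence interval from 17.7% to 64.5%). In the other 3 clans together it was 4 of 43 (9.3%, from 3.68% to 21.6%), and in the whole list 10.2%, ties included. The place of the events also differed in number. All 13 events of clan 86 lay in the promoter, taken here as 3 kb upstream to 100 bp downstream of the transcription start site (TSS), or inside the gene, against 22 of 43 (51.2%) in the other clans and 64.6% of the other listed events. The clans were set against each other after their values had been seen, and the differences are descriptions.

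Of the 6 CYP86 genes, which in Arabidopsis encode omega-hydroxylases that make cutin and suberin monomers, CYP86B1 (VIT_01s0011g02060, chromosome 1 of 12X.v2 from 1748090 to 1751431, plus strand) had the strongest event. Its relative in Arabidopsis is required for very-long-chain suberin monomers. The event peaked at 1747514, in the promoter 576 bp before the TSS. It held 210 reads (95% exact Poisson interval from 182.6 to 240.4 reads), its −log10 q-value was 24.85, and it ranked 207 of 8558 by signal. This was the second-highest signal of all P450 events.

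The CYP86A genes carried their events inside the gene with a single exception. CYP86A2 was the annotation of a pair of genes. The gene on chromosome 1 (VIT_01s0137g00410, from 6936328 to 6938135) had 169 reads at 6937539, 1211 bp from the TSS, and a −log10 q-value of 13.13. The gene on chromosome 2 (VIT_02s0025g03320, from 2641559 to 2645875) had 155 reads at 2642473, 914 bp from the TSS, with a −log10 q-value of 23.48. The Poisson intervals of these signals, from 144.5 to 196.5 reads and from 131.6 to 181.4 reads, overlap, although their q-values differed. Whether the genes differ in reads beyond counting error was not tested. CYP86A8 (VIT_15s0046g02380, chromosome 15 from 19173905 to 19175788) had 142 reads 1054 bp from the TSS with a −log10 q-value of 14.62, and was the strongest P450 event outside the highest 10% by signal. CYP86A1 (VIT_06s0004g06210, chromosome 6) had 104 reads 1464 bp from the TSS. In Arabidopsis CYP86A1 acts in root suberin and CYP86A2 and CYP86A8 in cutin. These 4 events thus lay between 914 and 1464 bp into genes of 1808 to 4317 bp. The exception was the other gene named CYP86A8 (VIT_03s0110g00100), a model of only 501 bp, with 51 reads 118 bp upstream of its TSS and a −log10 q-value of 6.04. Exon and intron limits were not used here, so it is not stated in which of them an event lies.

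**Figure D2:**
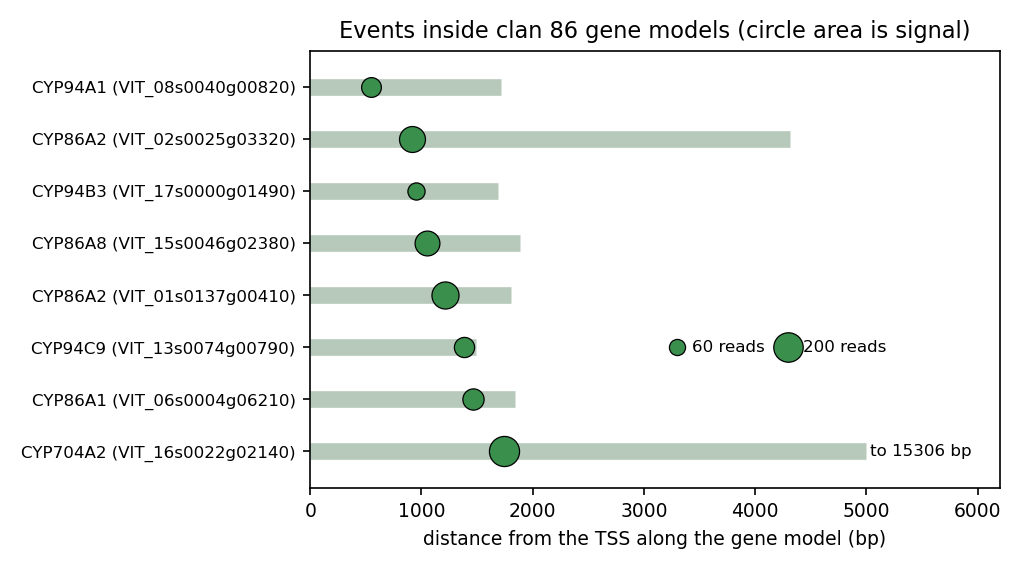
Gene models of clan 86 with an event inside the gene (bars, from the TSS to the gene end, cut at 5 kb for CYP704A2) and the summit of the event (circles, area in proportion to the signal in reads). The 4 events at CYP86A genes lie between 914 and 1464 bp from the TSS.

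CYP704A2 (VIT_16s0022g02140), whose family includes fatty acid hydroxylases of the pollen wall in Arabidopsis and rice, lies on chromosome 16 (16087685 to 16102990, plus strand). Its event, 1746 bp from the TSS, had 209 reads (from 181.6 to 239.3 reads). Its −log10 q-value of 29.87 gave it the highest q-value rank within clan 86, 293 of 8558.

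CYP94 enzymes hydroxylate fatty acids, and in Arabidopsis CYP94B3 and CYP94C1 oxidise and so inactivate the hormone jasmonoyl-isoleucine. The CYP94 genes had 6 events at 5 genes, with a median signal of 81.5 reads (lowest 68, highest 170 reads). The highest was at CYP94C9 on chromosome 8 (VIT_08s0007g03660, minus strand, from 17604366 to 17606629), where 170 reads lay 1979 bp before the TSS (−log10 q-value 13.3). The second gene named CYP94C9, on chromosome 13 (VIT_13s0074g00790, from 9347916 to 9349409), had 94 reads 1381 bp inside the gene, near its end, and 73 reads 1081 bp upstream of the TSS, the summits being 2462 bp apart and the −log10 q-values 6.83 and 3.45. The Poisson intervals of this pair, from 76 to 115 reads and from 57.2 to 91.8 reads, overlap, and the interval of the chromosome 8 event, from 145.4 to 197.6 reads, lies above both. CYP94B3 (VIT_17s0000g01490) had 68 reads 955 bp from the TSS with a −log10 q-value of 5.54. CYP94A1, named after a fatty acid hydroxylase of vetch, was the annotation of 2 genes, with 72.3 reads 2765 bp upstream of VIT_06s0080g00090 (−log10 q-value 6.18) and 90 reads 548 bp inside VIT_08s0040g00820.

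Clan 71 contributed the most members, 22 genes of 10 families with 25 events, and also the single strongest event. Of the 4 genes annotated as CYP79A2, an enzyme that in Arabidopsis turns phenylalanine into its aldoxime, VIT_06s0009g02930 on chromosome 6 (from 17085399 to 17085834, minus strand) had 219 reads (95% exact Poisson interval from 191 to 250 reads) and a −log10 q-value of 18.17. Its summit at 17083761 lay 1638 bp beyond the end of a model of only 436 bp, and no other event lay within 307.3 kb. The 3 further CYP79A2 genes had 98 reads inside VIT_06s0009g01780, 60.7 reads 42 bp upstream of VIT_06s0009g03120 (−log10 q-value 6.83) and 39 reads 2079 bp upstream of VIT_13s0067g02830 (−log10 q-value 3.0). The last signal is the lowest signal among P450 events, shared with CYP72A1 (VIT_19s0135g00150), so genes of the same name spanned the whole P450 range.

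CYP78A enzymes, which include KLUH of Arabidopsis and PLASTOCHRON1 of rice, influence organ size and leaf initiation. Their 4 genes had 6 events with a median −log10 q-value of 19.7. CYP78A11 (VIT_07s0031g01570, chromosome 7 from 23993103 to 23994887, minus strand), which bears the name of PLASTOCHRON1, had the highest q-value rank of all P450 events, 172 of 8558, with 175 reads (from 150 to 202.9 reads) 662 bp inside the gene and a −log10 q-value of 35.99. The event at CYP78A4 (VIT_17s0000g05110) lay 7229 bp upstream and had 157.6 reads (−log10 q-value 24.18). CYP78A7 (VIT_18s0001g00590) had events 7261 and 5839 bp upstream with 122 and 63.8 reads (−log10 q-values 22.38 and 4.88), and CYP78A8 (VIT_02s0025g02570) had events 953 and 2529 bp beyond the gene end with 57 and 100 reads (−log10 q-values 3.57 and 16.99). None of the 6 CYP78 events was in the promoter, where 28.7% of the other listed events lay. Whether these few events differ from that share was not tested.

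Among the other clan 71 genes, 3 had an event in the promoter. CYP93A1 (VIT_08s0007g07740, chromosome 8, minus strand), annotated as a 2-hydroxyisoflavanone synthase, held 118 reads 2475 bp before its TSS, and its −log10 q-value was 28.02, which placed it at rank 344 by q-value but 1863 by signal. CYP81B2v1 (VIT_18s0001g09500) had 55 reads 1223 bp upstream and a −log10 q-value of 2.7, and CYP71A26 (VIT_17s0000g09540), with a model of 486 bp, had 85 reads 13 bp upstream and a −log10 q-value of 3.32. Events inside the gene were found at CYP71E, named after a family of cyanogenic glucoside synthesis in sorghum (126 reads), CYP89H3 (130 reads), CYP81E1 (95 reads), CYP89A28 (79.9 reads) and CYP76B1 (56 reads). CYP76C4 (VIT_02s0012g02810), of a family that oxidises monoterpenols in Arabidopsis, had 2 events beyond its gene end, of 62 reads at 2466 bp and of 86 reads at 7964 bp (−log10 q-values 8.32 and 13.68). The remaining events, at CYP83B1, CYP82C1p, CYP77A2, CYP82C4 and CYP71D64, had 72 to 99 reads and lay outside the gene and its promoter, those of CYP77A2 and CYP82C4 29670 and 34495 bp upstream of the TSS.

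In clan 72 the CYP72A genes, a family best known for secologanin synthase (CYP72A1) of Catharanthus, held 10 of the 13 events. The lowest of their signals was 39 reads, the median 71 reads and the highest 157 reads. CYP72A15 (VIT_19s0015g02050, chromosome 19, plus strand) had an event of 124.9 reads at 1661 bp upstream, with a −log10 q-value of 21.76. CYP72A53v1 (VIT_13s0084g00070, chromosome 13 from 21803760 to 21822443, minus strand) was the only member with 2 events in its promoter. At the summit 57 bp upstream 91 reads were counted (−log10 q-value 14.85), and at that 628 bp upstream 123 reads (−log10 q-value 8.6), so the event with fewer reads had the stronger q-value. Their Poisson intervals, from 73.3 to 111.7 reads and from 102.2 to 146.8 reads, overlap.

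Of the 3 genes named CYP72A1, VIT_15s0021g01060 on chromosome 15 had 65 reads 1778 bp upstream and 69 reads 2924 bp beyond its end (−log10 q-values 5.04 and 4.81). VIT_19s0135g00150 on chromosome 19 had 39 reads 2801 bp upstream (−log10 q-value 3.67). The third gene, VIT_19s0015g02910, was assigned an event of 157 reads 23237 bp upstream of its TSS (−log10 q-value 8.33), and no other event lay within 595.3 kb of it, the most isolated summit of all members. On chromosome 19, 3 CYP72A genes that follow each other among the members, with gaps of 69.6 and 57.1 kb, had 4 events in all. Genes between them that are not members were not looked at. These were 44 reads 277 bp upstream of CYP72A59 (VIT_19s0135g00190, −log10 q-value 4.67), the event of 39 reads given above, and 62 and 73 reads 18964 and 72887 bp upstream of the other CYP72A59 (VIT_19s0135g00120, −log10 q-values 9.86 and 6.4). All 4 were below the list's median signal, which 50.0% of all events reached. The part of the mapping filter in these 4 events was not tested. Outside CYP72A, an event of 95 reads lay 33432 bp upstream of CYP714A1, whose relative in Arabidopsis deactivates gibberellins, and events of 81 and 49 reads lay inside CYP715A1 and CYP721A1.

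Clan 85 had 5 events at 5 genes, with signals from 59 to 89 reads, all below the median of the list and none in a promoter. CYP722A1 (VIT_04s0023g02350) had 89 reads 1825 bp inside the gene. The 3 genes named CYP87A3 had 75.5 reads inside VIT_16s0100g00610, 79 reads 1000 bp beyond the end of VIT_18s0122g01460 and 59 reads 2381 bp beyond the end of VIT_15s0048g01950. CYP87A2 (VIT_02s0025g04080) had 77 reads 3902 bp beyond its end. P450 genes that the annotation names by their enzyme, and which are therefore no members, were taken from a fixed pair of names. Genes named abscisic acid 8′-hydroxylase (family CYP707), an enzyme that breaks down abscisic acid, had 5 events with 47 to 124 reads. Of these, that at CYP707A4 (VIT_03s0063g00380) 2994 bp upstream, with 47 reads, was in a promoter. Allene oxide synthase (family CYP74), an early step of jasmonate synthesis, had 118 reads 76 bp upstream of VIT_03s0063g01850 with a −log10 q-value of 21.38 and 63 reads just beyond the end of VIT_03s0063g01860.

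Across all members, 16 events (28.6%, 95% Wilson confidence interval from 18.4% to 41.5%) lay in the promoters of 15 genes, against 28.7% of the other listed events. All 16 were upstream of the TSS, 5 within 500 bp, 7 within 1000 bp and 12 within 2000 bp. Inside the gene beyond its first 100 bp lay 19 events (33.9%, from 22.9% to 47.0%), against 35.8%, each at a different gene. A further 8 lay within 3 kb beyond the gene end (14.3%, from 7.42% to 25.7%), against 9.16%, 10 more than 3 kb upstream (17.9%) and 3 farther downstream (5.36%), against 19.3% and 6.97%. For 7 events (12.5%, from 6.19% to 23.6%) the assigned gene was more than 10 kb away, against 9.71% of the other listed events, and 4 of the 7 were in clan 72. The distribution over these places was close to that of the other listed events, and each interval includes their share.

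**Figure D3:**
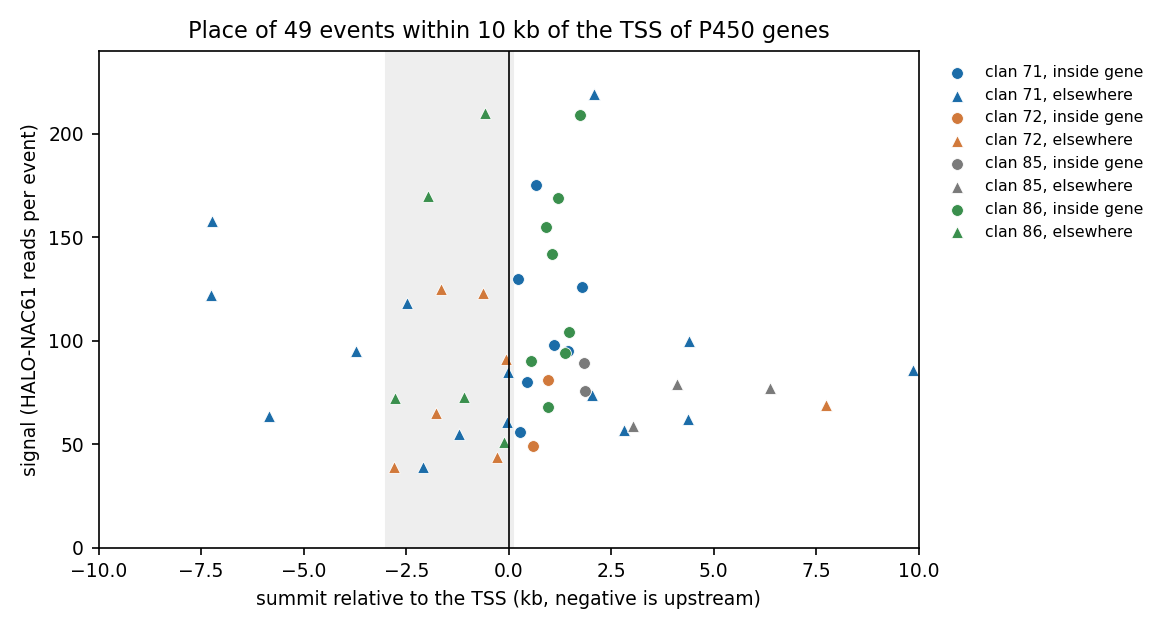
Signal of the 49 P450 events within 10 kb of the TSS against the distance of their summit from the TSS (kb, negative is upstream), with colour for the clan, circles for events inside the gene and triangles for all others. The shaded band is the promoter, with 16 events, and the events of clan 86 all lie in it or inside the gene.

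Inside P450 genes the median position of the summits was 49.2% of the gene length (95% interval from 26.6% to 63.5%), against 33.1% (from 28.7% to 37.6%) at other listed genes, with overlapping intervals. In base pairs the order of the medians was the other way round, also with overlapping intervals, with a median of 1054 bp from the TSS (from 581 to 1464 bp) in P450 genes and of 1571 bp (from 1340 to 1830 bp) in the others. The P450 gene models were shorter, with a median of 1896 bp (from 1753 to 2481 bp) against 3885 bp (from 3595 to 4156 bp). Models shorter than 1 kb were about as frequent in both sets, with 6 of the 49 P450 genes (12.2%, from 5.73% to 24.2%) and 9.66% of the other listed genes. Promoter events had a median of 72.7 reads and inside events a median of 95 reads, and the intervals of both medians, from 51 to 123 reads and from 79.9 to 142 reads, overlap.

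Most members had a single event, since 7 of the 49 genes had 2 events (14.3%, 95% Wilson confidence interval from 7.1% to 26.7%) and 42 had 1, whereas 22.3% of the other listed genes had 2 or more, a share within that interval. Within the 7 pairs the stronger event had 1.06 to 1.91 times the reads of the weaker, with the highest ratio at CYP78A7 and the lowest at CYP72A1. The summits of a pair were 571 bp apart at CYP72A53v1 and 53.9 kb apart at CYP72A59. None of the 56 events had another event of the list within 500 bp (upper bound of the 95% Wilson confidence interval 6.42%). The share was 5.89% of all events and 6.91% of the other listed events (from 5.84% to 8.17%). The upper bound thus lies above the share of the list and below that of the other listed events, but within the interval of the latter. No distance other than 500 bp was tried, and the closest P450 events were 571 bp apart. The median distance to the nearest event was 17.7 kb for P450 events (from 11.5 to 28 kb) and 12 kb for the list (from 11.5 to 12.5 kb). P450 events were found on 14 of the 19 chromosomes, with 7 each on chromosomes 2, 18 and 19, which held 362, 741 and 344 of all 8558 events. Chromosomes 5, 9, 11, 12 and 14, without a P450 event, held 469, 309, 378, 330 and 534. The sequence not anchored to a chromosome, also without one, held 169.

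Signal and q-value rose together without giving the same order (Spearman's rho of 0.776 over the 56 P450 events, 0.767 over all events, both from the same pooled libraries and given as a description). CYP81E1 and CYP89H3 show the distance between them, both with an event inside the gene. CYP89H3 (VIT_19s0090g01620), a model of 438 bp, reached 130 reads with a −log10 q-value of 27.75, while CYP81E1 (VIT_18s0001g09650), named after an isoflavone hydroxylase of liquorice, reached 95 reads with a −log10 q-value of 2.83. CYP714A1 and CYP82C1p also had 95 reads, with −log10 q-values of 6.99 and 9.27. The control reads at each event were not analysed here.

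**Figure D4:**
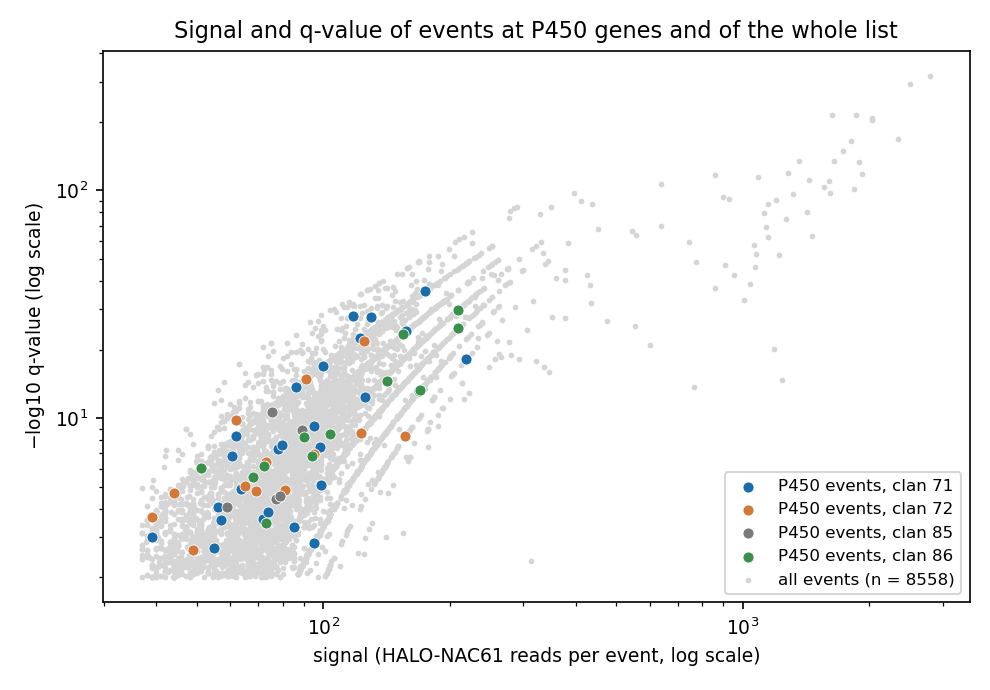
Signal against the −log10 q-value, both on log scales, for the 56 P450 events by clan (large points) and all 8558 events (grey). P450 events run through the main body of the list, from 39 to 219 reads, and the events above 219 reads at its upper end include none of them.

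Events with a GCGTG k-mer had more reads than those with an ACGTG k-mer within the P450 set, with medians of 118 reads (95% interval from 81 to 155 reads, 17 events) and 70.5 reads (from 55 to 169 reads, 8 events). The intervals overlap. Among other listed events the medians were 88 reads for GCGTG (428 events) and 86 reads for ACGTG (111 events). The ACGTG events of the P450 set with the most reads were both at CYP86A genes, CYP86A2 on chromosome 1 and CYP86A8 on chromosome 15. P450 events with any k-mer had a median of 93 reads and those without a median of 82 reads, while the other listed events had 86 and 91.2 reads. The intervals of the P450 medians, from 73 to 126 and from 69 to 95 reads, overlap. By median −log10 q-value the P450 events with a k-mer were the lower, 7.03 against 7.38, as were the other listed events, 6.57 against 7.37.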

How the data were processed

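Young leaf DNA of cv. Syrah was assayed by DAP-seq with 2 HALO-NAC61 and 2 control libraries. The authors trimmed reads with fastp 0.21.0 and aligned them with Bowtie2 (version 2.0 in the submitters' processing notes) to PN40024 12X.v2. Reads of low mapping quality were removed before GEM was run in its replicate mode. The deposited signal is the number of HALO-NAC61 reads per event, the deposited −log10 q-value sets the event against the control, and the deposited score and p-value were not used. Depth per library was not analysed, as each event has 1 pooled value. By the study's methods the control libraries were sequenced less deeply than those of HALO-NAC61.

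Gene annotations, gene limits and k-mers came from the gene table published with the study, joined by event name. Signal and q-value were identical in both sources for all 1879 events. Its fold over the control was not used. Distances run from the summit to the start of the gene model. Shares have Wilson intervals, signals exact Poisson intervals and medians intervals from order statistics, each at 95%. The Poisson intervals cover the counting error of reads only. The Wilson and median intervals treat events or genes as independent draws and leave out that error. None of these intervals covers the spread between replicates. The distance and place steps and the Poisson interval were tested on simulated data. The Wilson and median intervals were not. Events are not replicates, so no test was run. Members, lists and clans were chosen with earlier results of these data known. By rule, signal, place and q-value are given for the 10 events of highest signal, promoter events, genes with 2 events and the lowest signal, and the other events are given in brief. Alternatives covered the spelling, the minimum q-value, the distance limit, the promoter length, the ranking and added P450 genes. Sequence around summits was not used here. The work was done in Python 3.11.15 (pandas 2.3.3, scipy 1.17.1, numpy 2.4.6, with figures by matplotlib 3.10.9).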

Additional observations from a re-analysis of the deposited data

How the results depend on the processing

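No paired analysis was possible because the deposited list holds 1 value per event over both replicates, and for the same reason no replicate could be left out. A minimum −log10 q-value of 5 left 38 P450 events, raised the median signal to 98.5 reads and the median −log10 q-value to 9.56, and left 10 events in the promoter and 18 with a k-mer. A promoter of 1 kb held 7 events. These follow from the alternatives' own construction, as events are removed. The spelling, a minimum −log10 q-value of 3, a limit of 5 kb to the gene, a promoter of 5 kb, the lower end of the interval as the reference point, ranking by q-value or among the 19 chromosomes, and the added CYP707 and CYP74 genes moved no count by over 1.5 times and no median out of its interval. Counts of reads at single events, and the few events per clan, limit what can be told apart.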
